A study of Citrus maxima and Citrus sinensis with 4 samples.

Results

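Among the leaf small RNAs of *Citrus*, 4 precursor loci stood out by carrying many reads without an assignment to a plant miRNA family. They were taken by name from the deposited table of 699 predicted precursor loci as abundant loci with no label (scaffold_2_271215, scaffold_2_326556 and scaffold_6_1121987) or with no label other than that of an algal miRNA (scaffold_1_126346, labelled cre-miR908.3, where cre stands for the green alga *Chlamydomonas reinhardtii*). They were chosen by their numbers of mature reads and by the missing label, and the share of the mature sequence among the reads of each precursor entered that choice too, so these values are given as description. Of the 699 loci, 387 carried a label and 312 did not, and the 3 unlabelled loci here were the 3 most abundant of those 312. The libraries came from mature leaves at 1/3 of the plant height of *C. sinensis* ('Xuegan', a sweet orange) and *C. grandis* (sour pummelo, named *Citrus maxima* in the sample labels). Seedlings of each species received nutrient solution with 400 μM (B-toxic) or 10 μM (control) H3BO3, that is boric acid, for 15 weeks. Each of the 4 conditions was 1 library made from the mixed RNA of 5 replicates, so that a test on the reads of 2 libraries compared those libraries and not the conditions. The mature reads summed over loci numbered 243277 in B-toxic and 346600 in control *C. sinensis*, and 325441 in B-toxic and 373890 in control *C. grandis*. These sums were 2.97 to 3.90% of the clean reads of each library. They count a sequence again at each locus that lists it, and shares of mature reads below use them unless stated. With each distinct sequence counted once, they were 214299 in B-toxic and 305197 in control *C. sinensis*, and 260084 in B-toxic and 290550 in control *C. grandis*. PCR copies cannot be told apart in these reads, so every interval below covers counting error only.

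Plant miRNAs are cut from the stem of a hairpin transcript by a Dicer-like enzyme as a duplex, of which the mature strand enters an Argonaute protein and the other strand is usually lost. Many plant miRNAs begin with U, the first base preferred by the Argonaute protein that carries most of them, and they guide the cleavage of matching transcripts. Of the families used below for comparison, miR156 and miR157 act on transcripts of SPL transcription factors, which control the passage from juvenile to adult growth, and miR482 and miR2118 act on transcripts of NBS-LRR disease resistance genes. No target or function is annotated for the 4 loci in the sources used here, and listing in the table does not show that a locus is a miRNA. In particular, the precursor of scaffold_1_126346 resembles, from general knowledge and not from a comparison made here, the 3′ end of the large ribosomal RNA of plants. No ribosomal RNA sequence was used here and this was not tested, so its values below are those of a listed sequence whose RNA class is in doubt.

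The mature sequences are shown because 3 of the 4 loci have no other name. They are written as deposited, 5′ to 3′, with the seed (bases 2 to 8) in capitals.
scaffold_2_271215: uUCUUAUUcagugacuguuua
scaffold_1_126346: cCUACGUCgcucagauucgu
scaffold_2_326556: uCUUACCUaugccacccauucc
scaffold_6_1121987: uUGACGGAagauagagagcac
Their lengths were 21, 20, 22 and 21 nt in that order. The first base was U at 3 loci and C at scaffold_1_126346, whereas U began the mature sequence at 41.2% and C at 13.0% of all 699 loci. Each of these mature sequences and seeds occurred at 1 locus of the table, so that no count of the 4 loci was listed again under the same sequence. How reads matching more than 1 locus were assigned was not given. The base composition differed among them. The GC content of the mature sequence was 28.6% at scaffold_2_271215, 55% at scaffold_1_126346, 50% at scaffold_2_326556 and 47.6% at scaffold_6_1121987, beside a median of 42.9% over all loci.

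The precursors are given to show where the mature sequence, in capitals, lies in each predicted hairpin.
scaffold_2_271215 precursor: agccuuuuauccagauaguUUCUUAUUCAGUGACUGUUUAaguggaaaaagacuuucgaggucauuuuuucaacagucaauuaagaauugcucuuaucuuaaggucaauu
scaffold_1_126346 precursor: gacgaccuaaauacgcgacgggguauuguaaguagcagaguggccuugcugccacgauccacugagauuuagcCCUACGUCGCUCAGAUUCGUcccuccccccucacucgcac
scaffold_2_326556 precursor: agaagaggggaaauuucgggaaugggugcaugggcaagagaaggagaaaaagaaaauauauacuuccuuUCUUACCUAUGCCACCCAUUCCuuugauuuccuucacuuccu
scaffold_6_1121987 precursor: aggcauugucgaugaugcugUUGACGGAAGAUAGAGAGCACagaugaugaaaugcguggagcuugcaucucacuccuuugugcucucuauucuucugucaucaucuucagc
The mature sequence lay on the 5′ side of the precursor at scaffold_2_271215 (bases 20 to 40 of 110) and scaffold_6_1121987 (bases 21 to 41 of 111), and on the 3′ side at scaffold_1_126346 (bases 74 to 93 of 113) and scaffold_2_326556 (bases 70 to 91 of 111). The authors predicted these precursors on the *C. clementina* genome. The identifiers name a scaffold and a number. The paper describes precursor positions of this kind as start positions on that genome. In the table, however, the numbers of each of the 26 scaffolds began above those of the scaffold before it, with 0 overlapping ranges, so they were not read as coordinates. As no genome or annotation was used here, the loci were not placed in genes, exons or introns.

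The 4 predicted hairpins fell into a pair of strong folds and a pair of weak ones. At scaffold_6_1121987, 20 of 21 mature bases were paired with the other side of the precursor in the fold of lowest free energy, and the fold had -44.2 kcal/mol per 100 bases. At scaffold_2_326556, 20 of 22 mature bases were paired and the fold had -44.3 kcal/mol per 100 bases. The other pair had fewer paired bases, 13 of 21 at scaffold_2_271215 with -24.5 kcal/mol per 100 bases and 12 of 20 at scaffold_1_126346 with -25.8 kcal/mol per 100 bases. Over all 699 precursors the median was 75% of mature bases paired and -26.7 kcal/mol per 100 bases, with quartiles of -38.3 and -22.1. The paired share was 95.2% at scaffold_6_1121987 and 90.9% at scaffold_2_326556, which 86.4% and 81.8% of loci lay below, but 61.9% at scaffold_2_271215 and 60.0% at scaffold_1_126346, which 7.73% and 6.87% of loci lay below. The 2 most abundant loci of the table thus had mature sequences that were less paired than those of most other loci, and their free energy was close to the median. The same numbers of mature bases were paired when folding was set to 25 in place of 37 degrees Celsius and in the centroid structure. These are computed folds with no measurement of structure and no test.

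**Figure D1:**
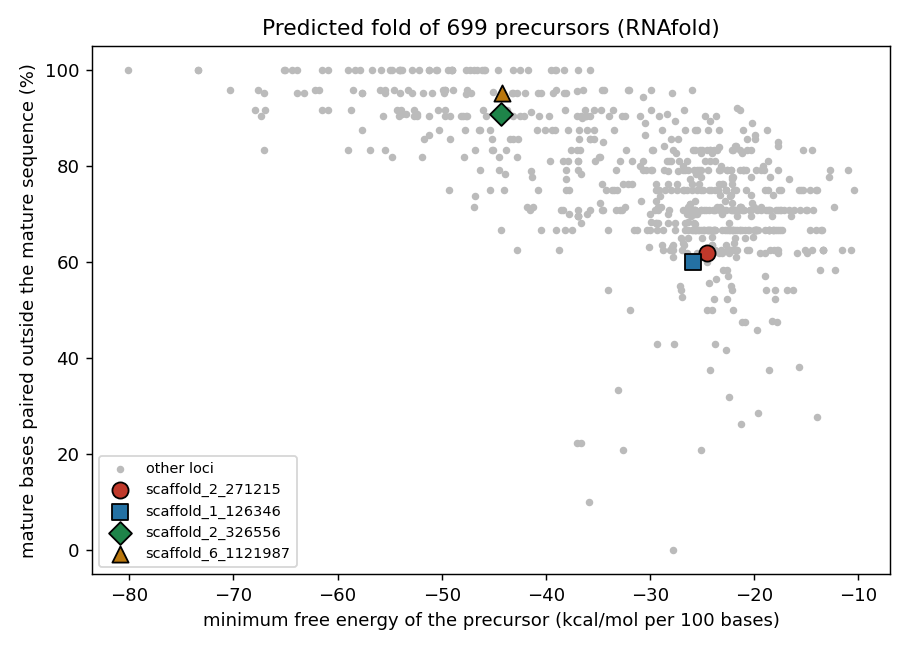
Each grey point is 1 of the other predicted precursors, by its minimum free energy in kcal/mol per 100 bases (x axis) and the share of mature bases paired outside the mature sequence (y axis, %), and the 4 large symbols are the loci described here. scaffold_2_326556 and scaffold_6_1121987 lie close together at about -44 kcal/mol per 100 bases with over 90% paired, and scaffold_2_271215 and scaffold_1_126346 lie close together at about -25 kcal/mol with about 60% paired.

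Together the 4 loci held 559495 of the 1289208 mature reads summed over loci (43.4%). With each distinct sequence counted once, that total was 83.0% as large, so the share would be higher. Without scaffold_1_126346, whose RNA class is in doubt, the other 3 held 350870 reads (27.2%). The 4 held 50.2% in B-toxic and 51.9% in control *C. sinensis*, and 38.5% in B-toxic and 35.4% in control *C. grandis*. In shares of mature reads summed over loci, the gap between the species lay at 1 locus. Without scaffold_2_271215 the other 3 held 19.6% in B-toxic and 20.3% in control *C. sinensis*, against 20.9% in B-toxic and 19.1% in control *C. grandis*. This depended on the total. With each distinct sequence counted once, scaffold_1_126346 held 18.4 and 18.6% in B-toxic and control *C. sinensis*, against 20.7 and 20.1% in *C. grandis*. On that total scaffold_2_326556 held 2.04 and 2.22% against 3.55 and 2.48%, and scaffold_6_1121987 held 1.84 and 2.14% against 1.89 and 1.96%. A share is bound to all others in its library, and the remaining 695 loci held 49.8% in B-toxic and 48.1% in control *C. sinensis*, against 61.5% in B-toxic and 64.6% in control *C. grandis*. On the TMM scale used below, the other 3 were higher in *C. sinensis*, as was scaffold_2_271215. Their log2 differences were 0.44 at scaffold_1_126346, 0.10 at scaffold_2_326556 and 0.62 at scaffold_6_1121987, none at an FDR below 0.05 in edgeR's test.

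scaffold_2_271215 was first by read number in every library. It had 74510 reads (30.6%, exact Clopper-Pearson 95% interval 30.4 to 30.8%) in B-toxic and 109708 reads (31.7%, 31.5 to 31.8%) in control *C. sinensis*, and 57163 reads (17.6%, 17.4 to 17.7%) in B-toxic and 60797 reads (16.3%, 16.1 to 16.4%) in control *C. grandis*. Its share was higher in both *C. sinensis* libraries than in both *C. grandis* libraries, and the species gap was far wider than the gap between B treatments. scaffold_1_126346 was second in every library, and its share differed little among them. It had 39343 reads (16.2%, 16.0 to 16.3%) in B-toxic and 56891 reads (16.4%, 16.3 to 16.5%) in control *C. sinensis*, and 53901 reads (16.6%, 16.4 to 16.7%) in B-toxic and 58490 reads (15.6%, 15.5 to 15.8%) in control *C. grandis*. The libraries of the species overlapped for this locus on this total only. With each distinct sequence counted once, both *C. grandis* libraries (20.7 and 20.1%) stood above both *C. sinensis* libraries (18.4 and 18.6%). Of the clean reads it made up 0.481% in B-toxic and 0.508% in control *C. sinensis*, and 0.646% in B-toxic and 0.511% in control *C. grandis*.

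scaffold_2_326556 ranked 9 and 8 in B-toxic and control *C. sinensis* and 6 and 8 in B-toxic and control *C. grandis*. It had 4382 reads (1.80%, 1.75 to 1.85%) in B-toxic and 6772 reads (1.95%, 1.91 to 2.00%) in control *C. sinensis*, and 9235 reads (2.84%, 2.78 to 2.90%) in B-toxic and 7199 reads (1.93%, 1.88 to 1.97%) in control *C. grandis*. The B-toxic *C. grandis* library stood above the other 3, which lay close together. scaffold_6_1121987 had 3947 reads (1.62%, 1.57 to 1.67%) in B-toxic and 6533 reads (1.88%, 1.84 to 1.93%) in control *C. sinensis*, and 4919 reads (1.51%, 1.47 to 1.55%) in B-toxic and 5705 reads (1.53%, 1.49 to 1.57%) in control *C. grandis*. Here the control *C. sinensis* library was the highest, and the 2 *C. grandis* libraries lay within each other's intervals. The next most abundant locus without a label, scaffold_8_1263994 with a mature sequence of 24 nt, had 13758 reads over the 4 libraries, against 21104 at scaffold_6_1121987 just above it, so that these 2 are the values on either side of the choice.

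**Figure D2:**
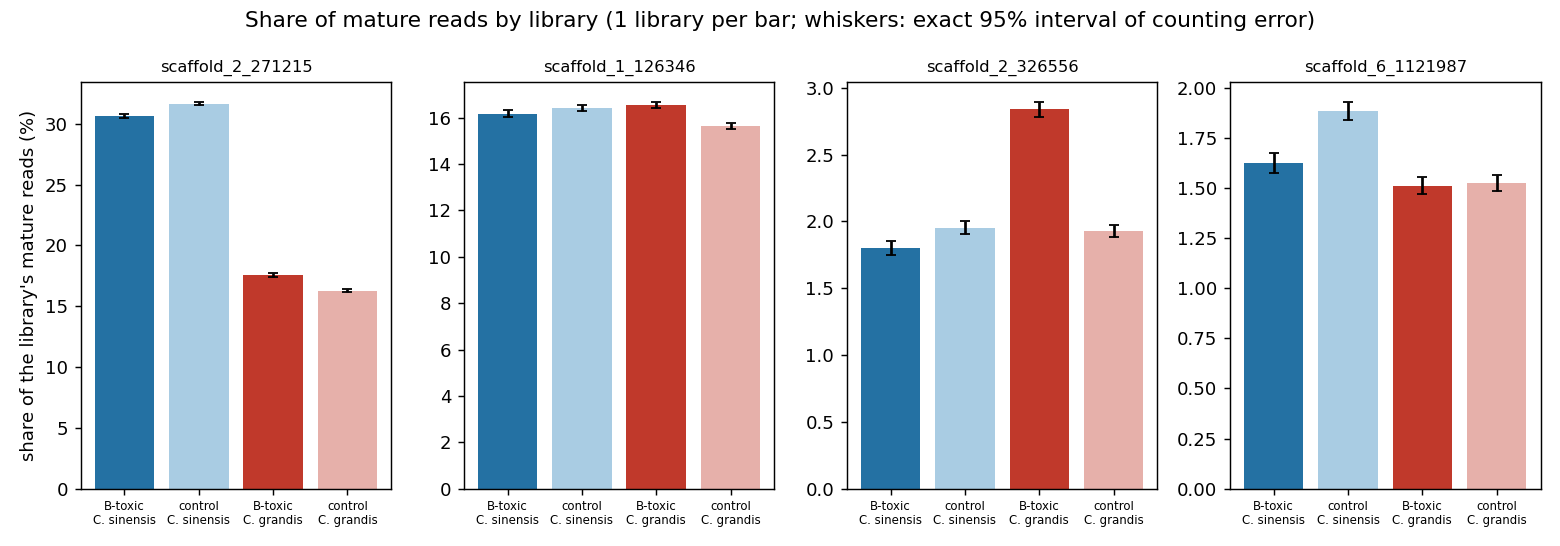
Bars give the share of each library's mature reads summed over loci (y axis, %, starting at 0 and scaled separately for each locus). Each bar is 1 of the 4 libraries, with exact 95% intervals as whiskers. scaffold_2_271215 has about 31% in the *C. sinensis* and 16 to 18% in the *C. grandis* libraries, scaffold_1_126346 is near 16% in all 4, and scaffold_2_326556 is highest in B-toxic *C. grandis* at 2.84%.

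The reads on each precursor also divided the loci into the same pairs. Of 302543 reads on the precursor of scaffold_2_271215, pooled over the libraries, 365 (0.121%) were not the mature sequence, and of 209216 reads at scaffold_1_126346, 591 (0.282%) were not. At scaffold_2_326556 the other reads numbered 2139 of 29727 (7.20%), and at scaffold_6_1121987 they numbered 1379 of 22483 (6.13%). By number of such reads, scaffold_2_326556 ranked 2 and scaffold_6_1121987 ranked 4 among all loci, whereas the 2 loci with the most mature reads ranked 11 (scaffold_1_126346) and 17 (scaffold_2_271215). Over all 699 loci the mature sequence made up a median of 95.8% of precursor reads, and 153 loci had no other read. Among the 77 loci with at least 1000 precursor reads the median was 99.3%. The table gives precursor reads as 1 pooled number, without position, so it does not tell how many of the other reads came from the opposite strand of the duplex or from shifted ends of the mature strand, nor in which library they arose.

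**Figure D3:**
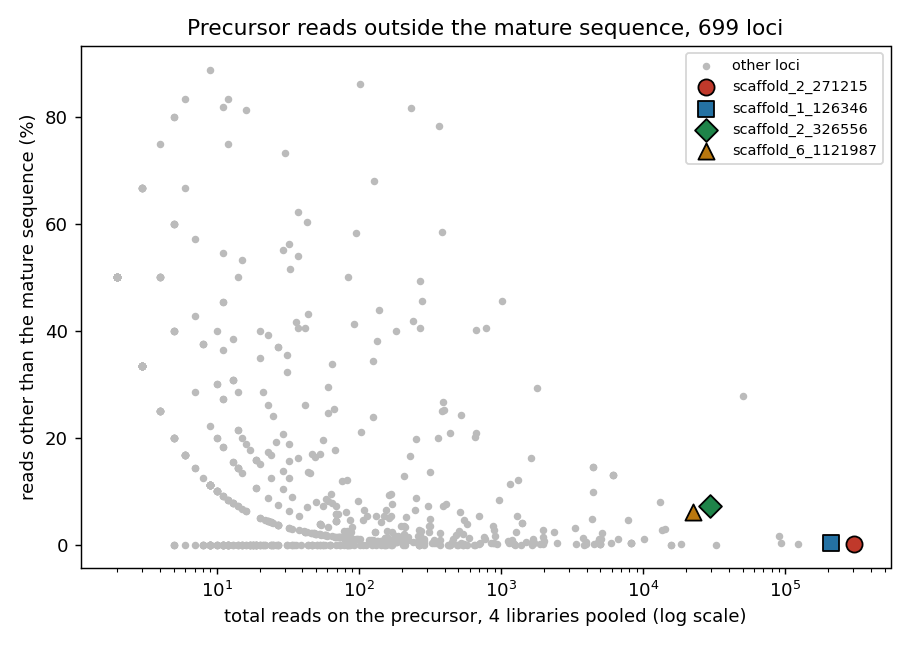
Points give, for each locus, the total reads on the precursor pooled over the 4 libraries (x axis, log scale) and the share of those reads that were not the mature sequence (y axis, %), with the 4 loci as large symbols. scaffold_2_326556 (7.20%) and scaffold_6_1121987 (6.13%) lie above scaffold_2_271215 (0.121%) and scaffold_1_126346 (0.282%).

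Each mature sequence was set against the 578 other mature sequences of the table by the best overlap without gaps of at least 15 bases. scaffold_6_1121987 differed by 1 base from a sequence labelled ath-miR157a (from *Arabidopsis thaliana*), listed at 4 loci. The labelled sequence and its nearest relatives are shown with the bases that differ from scaffold_6_1121987 in capitals.
scaffold_2_326213, ath-miR157a: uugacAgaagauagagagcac
scaffold_2_326223, ath-miR157a: uugacAgaagauagagagcGc
scaffold_2_326394, ath-miR157a: uugacAgaagauGgagagcac
With positions counted from the 5′ end, the base of the labelled sequence first and that of scaffold_6_1121987 last, the difference was A6G for scaffold_2_326213, A6G and G20A for scaffold_2_326223, and A6G and G13A for scaffold_2_326394. Position 6 lies in the seed. The unlabelled sequence was far more abundant than its match, with 3947 against 13 reads in B-toxic and 6533 against 22 reads in control *C. sinensis*, and 4919 against 7 reads in B-toxic and 5705 against 9 reads in control *C. grandis*. The ratio was 304 (95% interval 177 to 571), 297 (196 to 474), 703 (341 to 1749) and 634 (334 to 1387) in these 4 libraries. It was higher in both *C. grandis* libraries. Its intervals overlapped among the libraries, but the match had only 7 to 22 reads, so this overlap does not show equal ratios. The precursor of scaffold_6_1121987 was also closest to a precursor of that label, at scaffold_2_325919, with 72.8% identical bases over 103 aligned columns and a local alignment score of 42, beside a median score of 9 over the 698 comparisons. The 11 loci labelled miR156 or miR157, which hold 8 distinct sequences, had 27212 reads together, against 21104 at scaffold_6_1121987 alone.

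scaffold_2_326556 was most like loci labelled miR482. The nearest sequences in the table are shown with the bases that differ from it within the aligned stretch in capitals.
scaffold_2_326618, csi-miR482b: ucuuGccCaCCccUcccauucc
scaffold_2_326638, csi-miR482c: uuCccuaGUccCccUauuccua
scaffold_2_326536, ptc-miR6468-5p: uUuuUccCaCAccUcccauCcc
Against csi-miR482b (from *C. sinensis*), 17 of 22 bases were the same, and the differences were G5A, C8U, C10U, C11G and U14A, with the labelled base first. Against csi-miR482c, aligned from base 3 of scaffold_2_326556, 15 of 20 aligned bases were the same. The last bases of csi-miR482c (ua) lay outside the alignment and are not marked. Against ptc-miR6468-5p (from poplar), 15 of 22 bases were the same. The precursor gave the same first match, scaffold_2_326618, with 76.9% identical bases over 65 aligned columns and a score of 33, beside a median of 8. These 4 loci, scaffold_2_326536, scaffold_2_326556, scaffold_2_326618 and scaffold_2_326638, carried numbers close to each other on scaffold 2, and no other locus of the table was numbered between them. scaffold_2_326556 had 27588 reads, against 6583 at scaffold_2_326536, 4750 at scaffold_2_326638 and 4137 at scaffold_2_326618, and more than the 9010 reads of all 5 loci labelled miR482 or miR2118.

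scaffold_2_271215 and scaffold_1_126346 had no such relative in the table. The best overlap of scaffold_2_271215 was 12 of 16 bases with scaffold_9_1513612 (sly-miR397, 19 reads), and that of scaffold_1_126346 was 11 of 17 bases with scaffold_4_637162 (cpa-miR8146, 44 reads). Their precursors had best scores of 18 and 15, against 42 for scaffold_6_1121987 and 33 for scaffold_2_326556.

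Whether B-toxicity went with another level of these sequences was asked first within each species. The reads of each locus were set against all other mature reads of the 2 libraries in Fisher's exact test (two-sided), adjusted over all loci with a read there, and a call required both an FDR under 0.01 and at least a ratio of 2. Of the 4 loci, 0 were called in *C. sinensis*, where 1.88% of 640 loci tested were called, and 0 in *C. grandis*, where 7.05% of 638 were called. In *C. sinensis* all 4 levels were lower in the B-toxic than in the control library, by small amounts. The log2 ratio of B-toxic over control was -0.05 at scaffold_2_271215 (95% interval -0.06 to -0.03, FDR 2.15e-15), -0.02 at scaffold_1_126346 (-0.04 to -0.0029, FDR 0.0884), -0.12 at scaffold_2_326556 (-0.17 to -0.06, FDR 0.00032) and -0.22 at scaffold_6_1121987 (-0.27 to -0.16, FDR 1.35e-12). With the FDR alone and no limit on the ratio, 3 of the 4 passed, as did 8.91% of all loci tested. The median locus with at least 10 reads had a log2 ratio of 0.25 in this species (372 loci), so that the 4 loci lay below it.

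In *C. grandis* scaffold_2_326556 had the largest ratio of the 4, 28377 RPM (reads scaled to the mature total of the library) in the B-toxic against 19254 RPM in the control library. This was a log2 ratio of 0.56 (0.51 to 0.60, FDR 1.68e-136), or 1.47-fold. scaffold_2_271215 had 0.11 (0.09 to 0.13, FDR 3.88e-46) and scaffold_1_126346 had 0.08 (0.07 to 0.10, FDR 4.89e-24). scaffold_6_1121987 had -0.01 (-0.07 to 0.04, FDR 0.862). By the FDR alone 3 of the 4 passed, against 17.6% of all loci tested, and the median locus with at least 10 reads had -0.11 (431 loci). At this depth ratios of a few percent pass a test of counting error. With an assumed coefficient of variation of 0.2 between libraries, the FDR of edgeR's exact test was 0.807 for scaffold_2_326556 and 1 for the other 3 loci. As each library mixed 5 replicates, this assumed spread is not that between single replicates. The sign of scaffold_6_1121987 in *C. grandis* turned with the scaling, to 0.24 with clean reads, 0.13 with DESeq2 size factors and 0.06 with the 4 loci left out of the total.

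**Figure D4:**
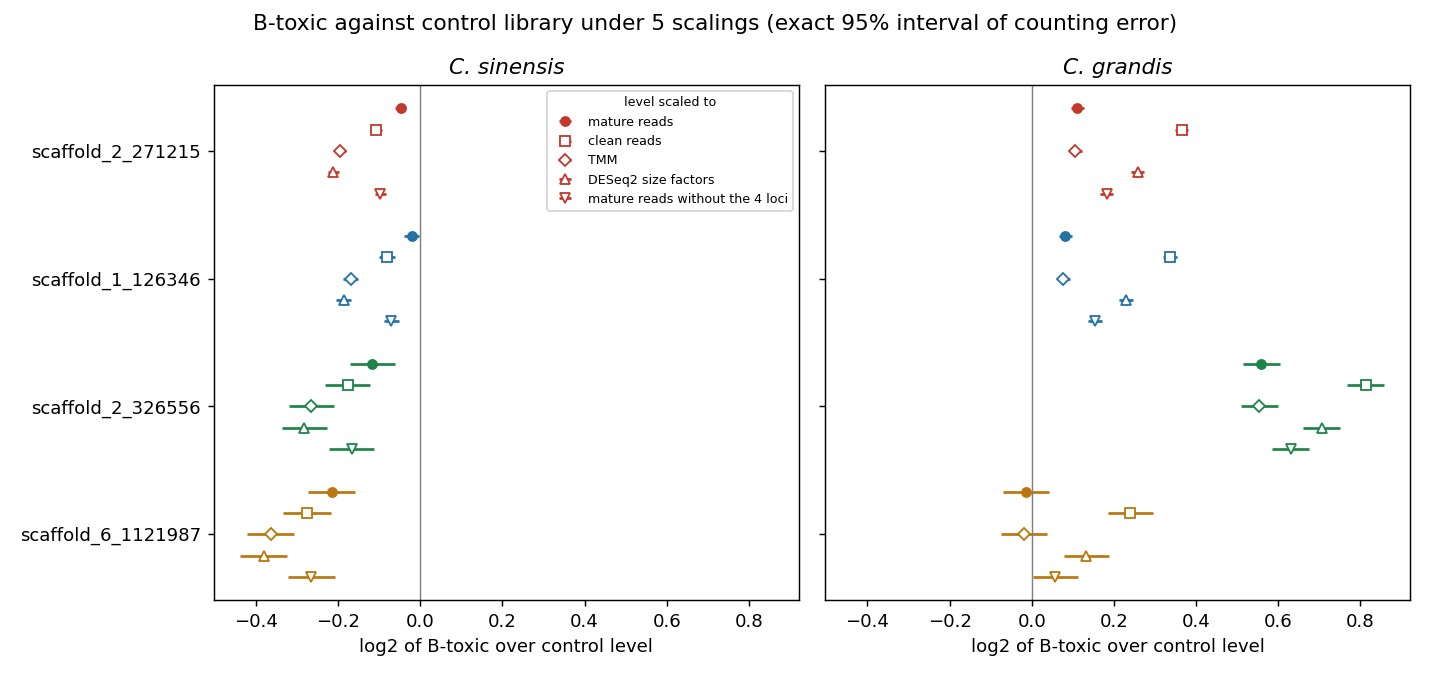
Points give the log2 ratio of the B-toxic over the control level (x axis) of each locus in *C. sinensis* (left) and *C. grandis* (right), with filled circles for the total of mature reads and open symbols for 4 other scalings. Lines are exact 95% intervals of counting error. In *C. sinensis* all points lie below 0, and in *C. grandis* those of scaffold_2_326556 lie between 0.55 and 0.81, while those of scaffold_6_1121987 lie on either side of 0.

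The same ratios of the labelled relatives are set beside these. scaffold_1_84815, the most abundant locus labelled ath-miR157a, had log2 ratios of -0.29 (interval -0.38 to -0.21) in *C. sinensis* and 0.25 (0.19 to 0.32) in *C. grandis*. scaffold_1_162521, the most abundant one labelled ath-miR156a, had -0.13 (-0.21 to -0.05) in *C. sinensis* and 0.12 (0.05 to 0.19) in *C. grandis*. Of the loci labelled miR156 or miR157, 0 of 11 tested were called in *C. sinensis* and 0 of 10 in *C. grandis*, with medians of -0.19 and -0.16 over the 10 loci with at least 10 reads in each species, of which 4 share 1 sequence and its counts. csi-miR482b at scaffold_2_326618 had -0.29 (-0.44 to -0.13) in *C. sinensis* and 0.14 (0.02 to 0.25) in *C. grandis*, and csi-miR482c at scaffold_2_326638 had -0.22 (-0.35 to -0.10) in *C. sinensis* and 0.34 (0.23 to 0.46) in *C. grandis*. Of the loci labelled miR482 or miR2118, 0 of 4 tested in *C. sinensis* and 0 of 5 in *C. grandis* were called, with medians of -0.26 over 4 and 0.29 over 3 loci with at least 10 reads. Abundant relatives also passed by the FDR of Fisher's exact test alone. In *C. sinensis* it was 5.68e-12 at scaffold_1_84815, 0.00946 at scaffold_1_162521, 0.00249 at scaffold_2_326618 and 0.00459 at scaffold_2_326638. In *C. grandis* it was 1.94e-13, 0.00351, 0.0655 and 3.15e-08 in that order, so scaffold_2_326618 did not pass there. scaffold_1_67512 (ath-miR157a), with 1016 reads, had 0.877 in *C. sinensis* and 0.788 in *C. grandis*.

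The ratio itself differed between the species at all 4 loci by an exact conditional test (FDR below 0.01), as at 13.3% of the 579 loci with reads in both species. The largest difference of the 4, *C. sinensis* minus *C. grandis*, was -0.68 at scaffold_2_326556 (95% interval -0.75 to -0.61, FDR 1.22e-77). It was -0.20 at scaffold_6_1121987 (-0.28 to -0.12, FDR 7.85e-06), -0.16 at scaffold_2_271215 (-0.18 to -0.14, FDR 9.12e-47) and -0.10 at scaffold_1_126346 (-0.13 to -0.08, FDR 1.32e-14). All 4 kept their sign and their call under the 6 alternatives tried, which changed library totals or the set of loci but not the counts of the 4. As each species and treatment was 1 library, this compares 4 libraries, and differences between single libraries cannot be told apart from a difference between the species in their response.

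The species were compared with edgeR's quasi-likelihood test with B treatment in the model, which left 1 residual degree of freedom. Of the 4 loci, 0 passed an FDR of 0.05, whereas 31.5% of the 349 loci tested did (1 of the 4 had an unadjusted p below 0.05). scaffold_2_271215 came nearest, with a mean share of 31.1% in *C. sinensis* and 16.9% in *C. grandis*, a log2 difference of 1.30 ± 0.44 (SE) on the TMM scale and an FDR of 0.0634. Its call turned on the settings. The first fit made kept the totals of all loci after the filter on low counts and gave an FDR of 0.0488. The fit reported above (0.0634) was made after that result was seen. So were fits with TMM computed before the filter (0.0926 and 0.0923) and a robust fit that also set the filter by species (1.98e-07). The choice among them was also made with their results in view. The FDR was 0.00633 with DESeq2, 0.00853 without TMM, 0.14 with each distinct mature sequence counted once, and 0.00662 without B treatment in the model. With 1 library left out, which also required B treatment to leave the model and left 1 library in an arm, it was 9.69e-07 to 0.1. The locus was higher in *C. sinensis* in every fit tried, by 0.88 to 1.50 on the log2 scale, but its place relative to the threshold was not settled. scaffold_6_1121987 had 0.62 ± 0.38 (FDR 0.289), scaffold_1_126346 had 0.44 ± 0.42 (FDR 0.513) and scaffold_2_326556 had 0.10 ± 0.41 (FDR 0.888). These values depend on the scaling, since without TMM scaffold_1_126346 had 0.02 and scaffold_2_326556 turned to -0.32. For comparison, scaffold_1_67512, labelled ath-miR157a, had 1.40 ± 0.32 (FDR 0.0156). Of the 10 tested loci labelled miR156 or miR157, 5 were called, all higher in *C. sinensis*, but 4 of these 5 share 1 sequence and its counts, that of scaffold_2_326213 (1.76 ± 0.49, FDR 0.0316), so that 2 of 7 distinct sequences were called. The most abundant, scaffold_1_84815 (0.13 ± 0.38, FDR 0.843) and scaffold_1_162521 (0.37 ± 0.37, FDR 0.514), were not.

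For the B response common to both species, edgeR called 0 of 349 loci (0%), with 7 at an unadjusted p below 0.05, of which 0 were among the 4 loci. DESeq2 called 0 as well, with 5 at an unadjusted p below 0.05. The log2 difference of B-toxic over control was -0.12 ± 0.43 at scaffold_2_271215, -0.12 ± 0.42 at scaffold_1_126346, 0.07 ± 0.41 at scaffold_2_326556 and -0.27 ± 0.37 at scaffold_6_1121987 (SE, FDR 0.901 to 0.991). Each of these is within its standard error of 0.

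Ratios of reads within a library do not depend on any scaling. The ratio of scaffold_2_271215 to scaffold_1_126346 was 1.89 (95% interval 1.87 to 1.92) in B-toxic and 1.93 (1.91 to 1.95) in control *C. sinensis*, and 1.06 (1.05 to 1.07) in B-toxic and 1.04 (1.03 to 1.05) in control *C. grandis*. The 2 most abundant loci were thus near equal in *C. grandis*, while in *C. sinensis* the first had almost 1.9 times the reads of the second. The ratio of scaffold_2_326556 to scaffold_6_1121987 was 1.11 (1.06 to 1.16) in B-toxic and 1.04 (1.00 to 1.07) in control *C. sinensis*, and 1.88 (1.81 to 1.94) in B-toxic and 1.26 (1.22 to 1.31) in control *C. grandis*, so the B-toxic *C. grandis* library stood apart.

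With scaffold_2_326536 (ptc-miR6468-5p), the locus numbered just below it, scaffold_2_326556 kept a more even ratio of 4.85 (4.52 to 5.22) in B-toxic and 4.32 (4.09 to 4.57) in control *C. sinensis*, and 3.94 (3.76 to 4.12) in B-toxic and 4.08 (3.87 to 4.30) in control *C. grandis*. Within each species the intervals of the B-toxic and control libraries overlapped, in *C. sinensis* only narrowly. The interval of B-toxic *C. sinensis* lay above those of both *C. grandis* libraries. Differences in this ratio were not tested. Against csi-miR482b at scaffold_2_326618 the ratio was 8.03 (7.34 to 8.79) in B-toxic and 7.13 (6.66 to 7.64) in control *C. sinensis*, and 7.15 (6.75 to 7.59) in B-toxic and 5.33 (5.03 to 5.66) in control *C. grandis*, with the last library below the other 3. Against csi-miR482c at scaffold_2_326638 it was 5.22 (4.85 to 5.63) in B-toxic and 4.85 (4.58 to 5.14) in control *C. sinensis*, and 6.996 (6.60 to 7.42) in B-toxic and 6.02 (5.67 to 6.41) in control *C. grandis*. This ratio was lower in both *C. sinensis* libraries, which was not so for csi-miR482b.

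The ratio of scaffold_6_1121987 to scaffold_1_84815 (ath-miR157a) was 1.99 (1.89 to 2.10) in B-toxic and 1.88 (1.81 to 1.96) in control *C. sinensis*, and 1.25 (1.20 to 1.31) in B-toxic and 1.51 (1.45 to 1.57) in control *C. grandis*, higher in both *C. sinensis* libraries.

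**Figure D5:**
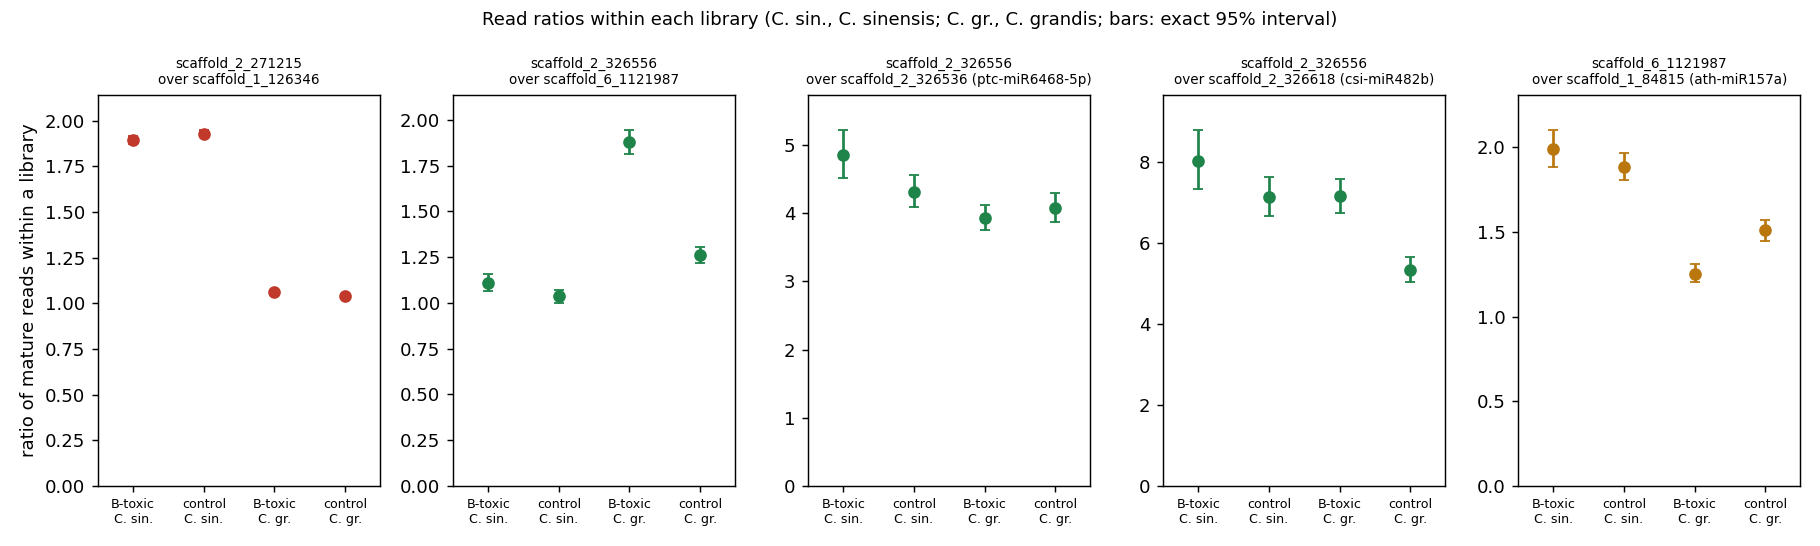
Points give the ratio of the mature reads of 1 locus to those of another in the same library (y axis, starting at 0), with exact 95% intervals, for the B-toxic and control libraries of *C. sinensis* and *C. grandis*. The ratio of scaffold_2_271215 to scaffold_1_126346 is about 1.9 in *C. sinensis* and about 1 in *C. grandis*, and that of scaffold_2_326556 to scaffold_2_326536 lies between 3.94 and 4.85 in all 4.

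The loci with the nearest pattern over the 4 libraries were named by the root mean square difference of centred log2 RPM. They were sought among 163 loci with at least 100 reads, with 1 locus kept for each distinct mature sequence. For scaffold_2_271215 they were scaffold_1_67512 (ath-miR157a, 0.0666), scaffold_1_144505 (bdi-miR827-5p, 0.0688) and the unlabelled scaffold_2_228593 (0.193), beside a median difference of 0.728. For scaffold_1_126346 they were scaffold_1_162521 (ath-miR156a, 0.0528), scaffold_2_212743 (0.0699) and scaffold_7_1238283 (mdm-miR171o, 0.105), beside a median of 0.498. For scaffold_2_326556 the nearest were scaffold_5_863440 (zma-miR395m-5p, 0.0648), scaffold_9_1467612 (0.0883) and scaffold_2_326536 (ptc-miR6468-5p, 0.115), beside a median of 0.521. Thus 1 of its 3 nearest by pattern was also among its 3 nearest by sequence, while csi-miR482c and csi-miR482b ranked 12 and 16. For scaffold_6_1121987 they were scaffold_3_395930 (0.0826), scaffold_6_1075467 (0.105) and scaffold_1_126346 (0.121), beside a median of 0.525, while of its relatives scaffold_1_162521 (ath-miR156a, 0.137) ranked 4, scaffold_1_84815 (ath-miR157a, 0.265) ranked 16 and scaffold_2_326223 (ath-miR157a, 0.34) ranked 34. With 4 libraries and counts under 100 per library at several of these loci, the order is a description.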

How the data were processed

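Leaf small RNA of 4 libraries, 1 per condition, was analysed, with groups taken from the sample labels. The authors trimmed and filtered the reads, took out other RNA classes, searched miRBase 21, and predicted precursors with MTide on the *C. clementina* genome. They deposited, without normalization, the count of mature reads per locus and library and a pooled count of all precursor reads. The MTide version and how multiply matching reads were assigned were not given in the sources used here. No genome was used here. The mature totals, summed over loci, served as depth, and a count of 0 allows 3 reads, or 8.02 to 12.3 RPM.

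From the counts, shares with exact 95% intervals, two-sided Fisher's exact tests within a species (Benjamini-Hochberg, FDR below 0.01 and ratio of at least 2), an exact conditional test of equal ratios between the species (FDR below 0.01), and edgeR 4.0.16 quasi-likelihood tests (TMM, filterByExpr, FDR below 0.05, 1 residual degree of freedom) were computed in SciPy 1.17.1 and R 4.3.3. Tests were fitted and adjusted over all loci, and were checked on simulated counts. The settings of that check were adjusted after an early version failed, and edgeR's test gave more false calls there than its nominal rate, so its FDRs may be too small. How library totals were set in edgeR was not specified in the design. A first fit that kept the totals of all loci called scaffold_2_271215 in the species comparison. After that result was seen, 4 more fits were run, and the fit with totals recomputed after the filter, which did not call it, was used because it follows an earlier processing of these counts. All 5 are given. Precursors were folded with RNAfold 2.7.2. Sequences were compared without gaps (overlap length minus 2 times the mismatches), and patterns as log2(RPM + 1) centred over the libraries.

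The loci named are the 4, their 3 nearest by sequence and by pattern, the next unlabelled locus, and loci of at least 1000 reads labelled miR156, miR157, miR482 or miR2118. The nearest precursor matches were named after their values were seen. The 4 loci and the lists were chosen with earlier results of these data known. Alternatives were other scalings (clean reads, TMM, DESeq2 1.42.0 size factors, totals without the 4 loci), other filters and thresholds, each distinct sequence counted once, assumed coefficients of variation of 0.2 and 0.4, DESeq2, and each library left out.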

Additional observations from a re-analysis of the deposited data

Results flagged for a closer look

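The ratio of B-toxic over control reads differed between the species at each of the 4 loci by the exact conditional test over 579 loci. The log2 difference, *C. sinensis* minus *C. grandis*, was -0.68 at scaffold_2_326556, -0.20 at scaffold_6_1121987, -0.16 at scaffold_2_271215 and -0.10 at scaffold_1_126346. With 1 library per condition, the spread between plants is not in this test.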

How the results depend on the processing

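No paired analysis was possible because each condition had 1 library and so 1 replicate number. The common B response already sets B-toxic against control within species, with species in the model. For the 4 loci, 24 of 24 alternative values of the difference in B response between the species kept direction and call. The filter at 10 reads could not change these log2 differences, and the other alternatives changed only totals or the set of loci. No assumed spread between libraries was tried for this test. In *C. grandis* the log2 ratio of scaffold_6_1121987 turned positive with clean reads (0.24), DESeq2 size factors (0.13) and the total without the 4 loci (0.058). The median log2 ratio of all loci with at least 10 reads moved too, in *C. sinensis* to 0.10 with TMM and 0.08 with DESeq2 size factors, against 0.25, and in *C. grandis* to 0.15 with clean reads and 0.04 with DESeq2 size factors, against -0.11. Called loci numbered 45 in *C. grandis* and 12 in *C. sinensis*, against 112 and 57 with no limit on the ratio, 10 and 6 in edgeR's exact test at an assumed CV (coefficient of variation) of 0.2, and 3 and 0 at 0.4. With no limit on the ratio the calls included scaffold_2_271215 (0.11), scaffold_1_126346 (0.082) and scaffold_2_326556 (0.56) in *C. grandis*, and scaffold_2_271215 (-0.047), scaffold_2_326556 (-0.12) and scaffold_6_1121987 (-0.22) in *C. sinensis*.

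In the species comparison scaffold_2_271215 had 1.30 and an FDR of 0.0634. It passed the threshold at 0.88 without TMM, 1.34 with DESeq2, 1.27 with no filter and 1.31 without B treatment in the model. It also passed at 1.30 with the totals of all loci kept and 1.30 in the robust fit, which also set the filter by species. It did not pass with TMM before the filter (1.27 in both fits), each sequence once (1.24) or the total without the 4 loci combined with no TMM (1.25). The kept-total fit was made first. The fit at an FDR of 0.0634, the TMM-before-filter fits and the robust fit were made after its result was seen. The fit at 0.0634 was then chosen with these results in view. With 1 library left out, in a model with species alone, it had 1.19 to 1.50. scaffold_2_326556 turned to -0.32 without TMM and had -0.11 to 0.35 with 1 library left out.

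For the common B response, called loci numbered 0. They numbered 1 without TMM, 4 with no filter, 2 with each sequence once and 1 in the robust fit with the filter by treatment. scaffold_2_271215 and scaffold_1_126346 turned positive at 0.032 and 0.031 without TMM, 0.023 and 0.021 with DESeq2, and 0.043 and 0.041 without TMM and with the 4 loci out of the total. With 1 library left out the species term had to be dropped, so that the difference between the species enters these values, which were -0.88 to 0.77 at scaffold_2_271215, -0.40 to 0.23 at scaffold_1_126346, -0.19 to 0.39 at scaffold_2_326556 and -0.65 to 0.21 at scaffold_6_1121987. The cause of the other changes was not tested. Dropping a library left 1 library in an arm, assumed to vary like the others. Depth limits these loci little, and the missing replicates limit every comparison.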
